A study of Mus musculus with 9 samples.

Results

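The retinas of mice kept for 14 days under cold white LED (light-emitting diode) light with a correlated colour temperature of 7378K were compared with those of control mice kept in a relatively dark environment. The comparison took the 3 arrays of the 7378K group against the 3 arrays of the control group, 6 of the 9 arrays of the series, across 12762 genes. The remaining 3 arrays, from mice under warm white light of 2954K, entered the same model and are used where the responses to the light sources are set side by side. All animals were females of the strain BALB/c (the labels spell it Babl/c), 10 weeks of age, an albino strain whose eyes lack screening pigment. Both LED groups received 1000 lx for 12 h a day, with 12 h off. The controls are described as living in a relatively dark environment, with no illuminance given, which leaves their light level unknown. Each array held RNA pooled from the right-eye retinas of 3 mice, so that n = 3 pools per group and the spread among single animals cannot be seen.

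Bright light can injure photoreceptors, the rods and cones that carry the visual pigments in their outer segments, and white LEDs of higher colour temperature emit relatively more blue light. Stressed photoreceptors signal to the Muller glia, the radial support cells of the retina. Cytokines of the gp130 family, such as leukaemia inhibitory factor (LIF), then act through the transcription factor STAT3, which switches on glial genes and its own inhibitor SOCS3. Microglia, the resident macrophages, move towards injured photoreceptors and express complement and antigen presentation genes.

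The arrays carried the defining transcripts of retina, with Gnat1 (rod transducin) between 14.39 and 14.98 on the log2 signal scale, Opn1sw (short-wavelength cone opsin) between 13.49 and 13.91 and Glul (glutamine synthetase of Muller glia) between 14.00 and 14.37 on all 9 arrays. The labels describe neurosensory retina separated from the pigment epithelium, yet the pigment epithelium gene Rpe65 lay between 9.73 and 11.83, while Best1, another gene of that layer, lay between 1.97 and 3.69. The lens crystallin Crybb2 reached 14.75 in control 3 and 9.99 in 7378K 3, against 3.08 to 7.69 in the other arrays of these groups. The median difference of 10 lens genes was -2.53, with none past the test in limma. Of these genes 0 had an unadjusted p under 0.05, beside 2882 of 12762 over all genes tested. Control 3 also had the highest mean of the controls over skeletal muscle genes, 8.94 against 7.25 and 7.17 in controls 1 and 2. Over melanosome genes its mean was 8.91, against 6.77 and 6.99. The part of lens, pigment epithelium, muscle and melanosome RNA in the results was not tested. Without the third array of each group, in which lens transcripts were highest, 124 genes rose and 22 fell under 7378K light, against 301 and 148 with them. That fit also had fewer arrays per group, and without control 3 alone 295 rose and 96 fell. The 3' minus 5' difference of the Gapdh and beta-actin control probe sets, which grows when the 5' ends of transcripts are lost, was 0.33, 0.20 and 0.42 in the controls and 1.80, 1.67 and 1.55 under 7378K light. The groups did not overlap in it, and their means differed by 1.36 (0.32 ± 0.12 against 1.67 ± 0.13, SD, n = 3; exact two-sided permutation p = 0.1, the smallest that 3 against 3 arrays allow, and adjusted p = 0.1 over 4 such measures). The 3' minus 5' difference of dap, a spike-in transcript added for labelling, was 1.61 ± 0.22 in the controls and 2.75 ± 0.04 under 7378K light (SD, n = 3). Its values were 1.64, 1.37 and 1.81 against 2.76, 2.70 and 2.77, without overlap. The parts of retinal RNA and of labelling in these differences were not tested. Between these groups the Gapdh and beta-actin difference moved with every gene called below, so counts are also given with this difference as a covariate in the model. On array 2954K 2 the Gapdh and beta-actin difference was 0.21, within the range of the controls. Of genes described below, Edn2 (12.68), Stat3 (11.24), Socs3 (9.97) and C1qa (10.27) lay above all controls on that array. Fdps (10.90) and Me1 (11.07), which fell under 7378K light, lay within the control range there. Prss56 (5.71), Fam3c (12.48) and Cnga1 (13.29), which also fell, lay below all controls on that array. Cp (11.39), which rose under 7378K light, lay within the control range. These genes are examples, picked from the genes called. The part of this difference in the results was not tested.

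**Figure D1:**
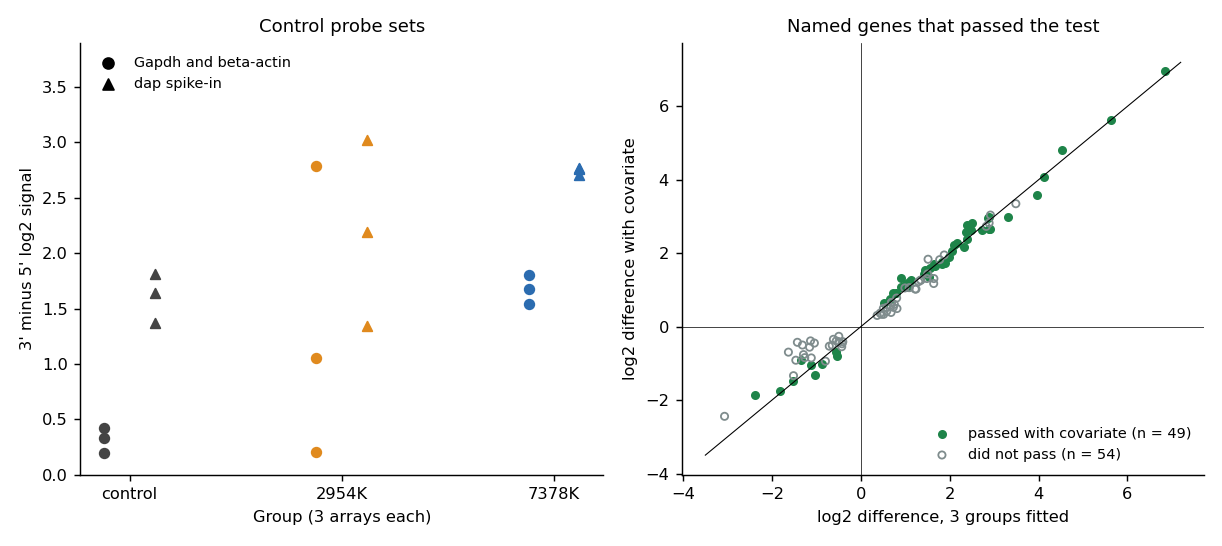
Left, the 3' minus 5' log2 signal of the Gapdh and beta-actin control probe sets (circles) and of the dap spike-in (triangles) on each of 9 arrays; the 7378K arrays lie between 1.55 and 1.80 for Gapdh and actin, above the controls at 0.20 to 0.42. Right, the log2 difference of 103 named genes past the test, from the model of 3 groups (horizontal) against the same model with that 3' minus 5' difference as a covariate (vertical); the line marks equal values, and 49 genes (filled) passed with the covariate while 54 (open) did not.

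Under 7378K light 301 genes rose (2.36% of those tested) and 148 fell (1.16%) at an adjusted p under 0.05. Of these, 119 rises and 28 falls were at least 2-fold, and the median log2 difference was 0.84 among the risen, -0.70 among the fallen and 0.04 over all genes. For each of the 449 genes the 3 arrays under 7378K light lay wholly above or wholly below the 3 controls, as they did for 21.6% of all genes upwards and 14.8% downwards. The risen genes had a median control signal of 9.47, close to the 9.43 of all genes, and the fallen genes one of 10.87. With the 3' minus 5' covariate 111 genes rose (0.87%) and 25 fell (0.196%), of which 99 and 21 were among the 301 and 148, and all 449 genes kept their direction. With the 3' minus 5' difference of dap, a spike-in transcript added for labelling, as the covariate instead, 66 rose and 11 fell, and 72 of the 103 named genes that passed lost their call. Averaging all probe sets of a gene gave 128 rises and 127 falls. Leaving out control 1 or control 2 moved the count of rises from 301 to 148 or 140, and leaving out 7378K 1, 2 or 3 moved it to 112, 132 or 130. It became 909 when 2954K 1 was left out and 767 when 2954K 2 was. The falls went from 148 to 40, 30 and 96 without controls 1, 2 and 3, to 32, 48 and 39 without 7378K 1, 2 and 3, and to 608 and 445 without 2954K 1 and 2. The same 102 rises and 25 falls were called in each of the 9 fits with 1 array left out. In bulk tissue, fewer cells of a type and less RNA per cell cannot be told apart.

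**Figure D2:**
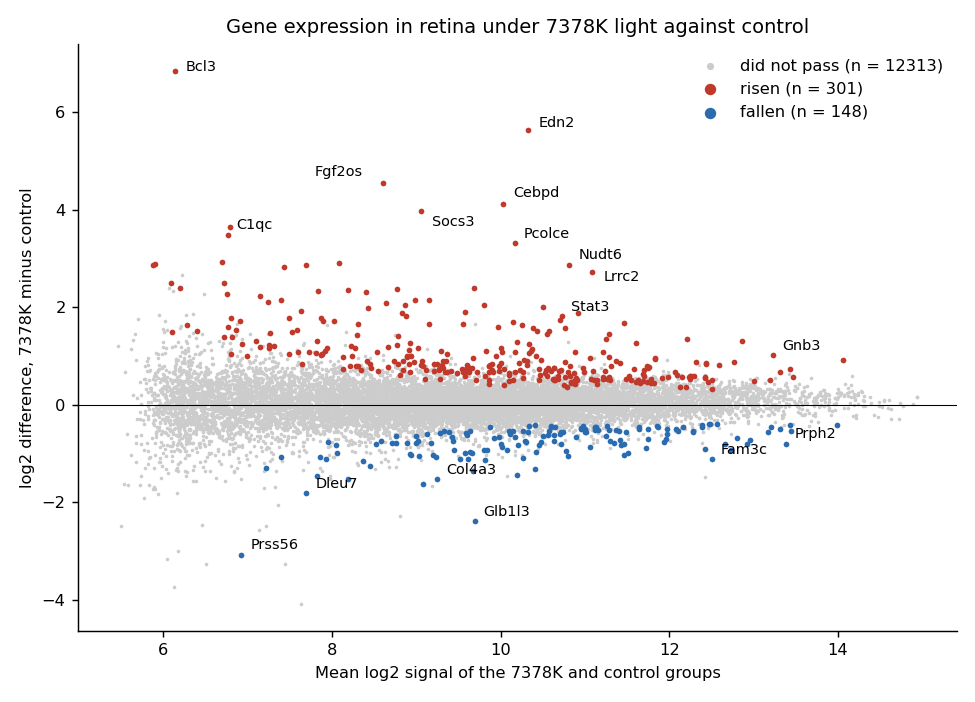
The log2 difference between 7378K and control (vertical) against the mean log2 signal of both groups (horizontal) for 12762 genes, 1 point each. The 301 risen genes (red) reach a fitted difference of 6.85 at Bcl3, whose controls lie below the intensity filter, and the 148 fallen genes (blue) reach -3.07 at Prss56.

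The 5 largest named rises were those of Bcl3, Edn2, Fgf2os, Cebpd and Socs3. Edn2, which encodes the vasoactive peptide endothelin 2, gave 8.18, 6.53 and 7.81 in the controls and 13.30, 13.20 and 12.90 under 7378K light (log2 signal). The groups were far apart, with a log2 difference of 5.63 ± 0.32 (SE; adjusted p = 1.1e-06). Of 6 tested genes of endothelin signalling 1, Edn2, passed. Ednrb, the endothelin B receptor, differed by 0.32 (adjusted p = 0.49).

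Lif gave 5.46, 2.76 and 5.16 in the controls, below the intensity filter of 5.91, and 7.00, 7.57 and 7.47 under 7378K light. All 3 exposed pools were above all controls, at least 2.71-fold against the filter value (adjusted p = 0.022). Osmr, a receptor subunit for LIF-related cytokines, rose from 8.96, 8.46 and 8.90 to 10.94, 10.73 and 10.83, a 4.15-fold rise (adjusted p = 7.1e-06). Il6st, which encodes gp130 itself, rose by 0.69 (adjusted p = 0.032), and the cytokine gene Clcf1 by 1.22 (adjusted p = 0.038). Lifr, the LIF receptor, differed by 0.42 and the kinase gene Jak1 by -0.01, and neither passed. Stat3 gave 9.80, 9.85 and 9.80 in the controls and 11.65, 11.73 and 11.54 under 7378K light, so that the spread within each group was small beside the difference of 1.82 ± 0.10 (adjusted p = 7.8e-07), and 3 of its 4 probe sets above the filter were higher. Socs3, the feedback inhibitor, rose from 6.74, 7.15 and 7.33 to 11.14, 11.17 and 10.82, a 15.7-fold rise with no overlap. Of 19 tested genes of gp130 and JAK-STAT signalling 6 rose, 0 fell and 13 did not pass, with a median of 0.25. With the 3' minus 5' covariate 3 of the 6 passed, Socs3, Stat3 and Osmr, while Lif (adjusted p = 0.20) and Il6st (adjusted p = 0.23) did not, and the same 3 passed with dap. On the mean of probe sets 2 genes of the list rose, and Osmr (0.32, adjusted p = 0.76) and Il6st (0.04, adjusted p = 0.97) lost their calls. The count of rises in the list ran from 3 to 7 when single arrays were left out. Lif lost its call without any 1 of the 7378K arrays (adjusted p up to 0.093), and Il6st in 5 of the 9 fits with 1 array left out (up to 0.15, without control 2).

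**Figure D3:**
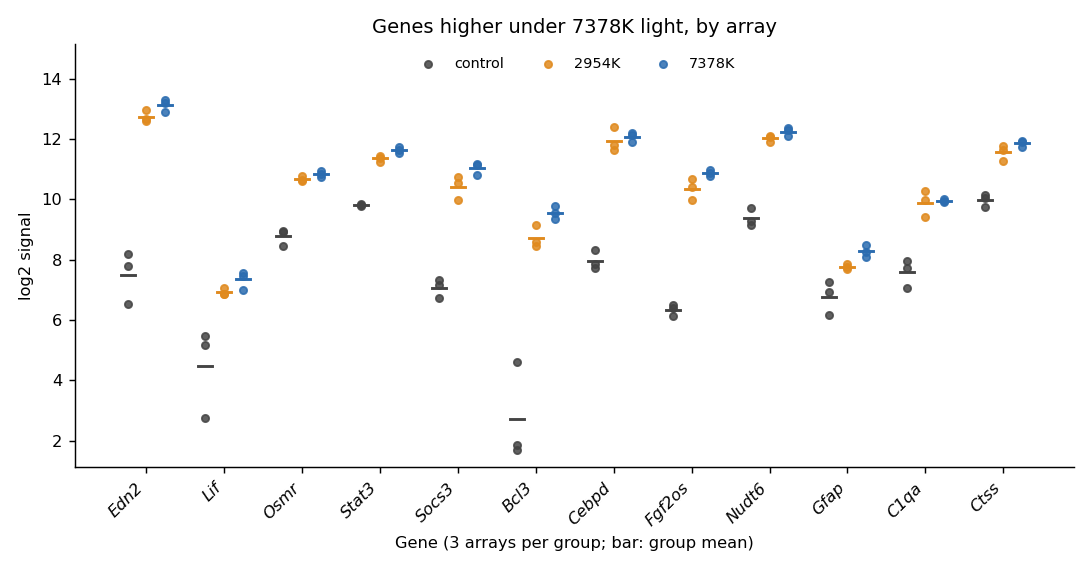
Log2 signal (vertical) of 12 risen genes (horizontal) on each array, with 3 control pools (grey), 3 pools under 2954K light (orange) and 3 under 7378K light (blue); bars are group means. In each gene all 7378K points lie above all control points, from 7.00 or more against 5.46 or less for Lif to 12.90 or more against 8.18 or less for Edn2.

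Bcl3, an atypical inhibitor of NF-kB that works in the nucleus, gave 4.59, 1.69 and 1.84 in the controls, all below the intensity filter, and 9.34, 9.77 and 9.56 under 7378K light. This was at least 12.5-fold higher (adjusted p = 5.2e-05). Nfkbie, which encodes another NF-kB inhibitor, rose by 1.30 (adjusted p = 0.043) and the kinase gene Ikbkb by 0.51 (adjusted p = 0.034). Of the 2 probe sets of Nfkbie above the filter 1 was higher and 1 lower, and it did not pass on their mean (adjusted p = 0.29). Ikbkb had 4 probe sets above the filter, of which only 2 were higher, and the mean over its probe sets was lower by -0.24. Tnfaip3, which encodes A20, an enzyme that switches NF-kB signalling off, moved the other way. It gave 11.98, 12.24 and 12.27 in the controls and 11.27, 11.20 and 11.38 under 7378K light, a fall of 0.88 ± 0.11 on the log2 scale (adjusted p = 0.001), in both of its probe sets above the filter. In all, 3 of 12 NF-kB subunits and inhibitors rose, 1 fell and 8 did not pass. With the covariate Bcl3 (adjusted p = 0.0017) and Tnfaip3 (adjusted p = 0.002) passed, as they did with dap, and Ikbkb and Nfkbie did not. Each of Ikbkb and Nfkbie lost its call in 6 of the 9 fits with 1 array left out, with adjusted p up to 0.165 without 7378K 1 and 0.173 without control 2.

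Of 5 C/EBP factors 2 rose and of 9 AP-1 factors 3 rose, both families of transcription factors in acute phase and injury responses. Cebpd rose from 7.71, 7.87 and 8.32 to 12.13, 12.22 and 11.89, a difference of 4.12 ± 0.20 (adjusted p = 4.7e-07) in both of its probe sets. Cebpb, a related factor, rose by 1.22 (adjusted p = 0.022). Among the AP-1 genes Atf3, induced by many kinds of cell stress, rose from 7.90, 7.09 and 7.80 to 9.84, 9.57 and 9.67 (adjusted p = 0.00061), Junb rose 2.70-fold and Jun 1.66-fold. All 9 AP-1 genes had a positive difference and 3 passed, with a median of 0.73 against 0.04 over all genes. The same 3 passed with the 3' minus 5' covariate, but Junb did not with dap (adjusted p = 0.071). Of 17 activity-regulated early genes, which neurons induce when they fire, 1 passed, Egr3 (adjusted p = 0.045). The 7378K mean of Egr3 lay 2.28-fold above the filter value. Egr1 of the same list differed by 0.56 and Npas4 by -0.61 without passing. Egr3 (adjusted p = 0.46) and Cebpb (adjusted p = 0.26) did not pass with the covariate, nor Egr3 on the mean of its probe sets (adjusted p = 0.25). Among the fits with 1 array left out, Egr3 lost its call in 7 (up to 0.186, without 7378K 1), Cebpb in 5 (up to 0.106, without control 2) and Jun in 2 (up to 0.0748, without 7378K 1).

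A pair of transcripts from the locus of fibroblast growth factor 2, a survival factor for photoreceptors, were among the steepest rises. Fgf2os, the opposite-strand transcript, gave 6.39, 6.13 and 6.48 in the controls and 10.77, 10.87 and 10.98 under 7378K light, a 23.2-fold rise (adjusted p = 1.1e-07). Nudt6, the protein-coding gene that overlaps Fgf2 on the other strand, rose from 9.70, 9.14 and 9.28 to 12.29, 12.35 and 12.11, a 7.34-fold rise (adjusted p = 4.7e-07). Fgf2 itself lay below the filter and was not tested. Its values were 4.58, 3.64 and 2.28 in the controls and 5.77, 5.64 and 5.55 under 7378K light, with no overlap. How far the probe sets of these overlapping genes tell their transcripts apart was not tested. Of 16 tested genes of this signalling pathway 1 rose, Fgf2os, and 15 did not pass, among them the receptor Fgfr1 at 0.92 (adjusted p = 0.069). Between 1 and 4 passed when single arrays were left out.

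Promoter sequences, from RefSeq on mouse genome build GRCm38.p6 and covering 250 bases before to 50 after each transcription start, were searched on both strands for the palindrome TTCNNNGAA that STAT proteins bind and for its narrower form TTCCNGGAA, every match of which is also a match of the first. TTCNNNGAA stood in 8.20% of 317 promoter windows of risen genes, 6.74% of 178 of fallen genes and 6.63% of 13233 of all genes tested. TTCCNGGAA stood in 2.21%, 0% and 1.19% of them. C/EBP-type sites (TTGCNNAAT) stood in 0.631%, 1.69% and 1.59%, and the sterol element core TCACNCCAC in 1.26%, 2.81% and 1.16%. The stretches shown are those around the match in the 4 named genes with the largest changes that hold any of the 5 motifs, with the match in capitals: Socs3 (chr11:117969452-117969580, minus strand), Bst2 (chr8:71537540-71537668, minus strand), Lrrc2 (chr9:110951540-110951568, plus strand) and Prss56 (chr1:87183102-87183230, plus strand). All are upstream of the start except that of Lrrc2, which spans it. Each is written 5' to 3' on the strand of its gene.
Socs3: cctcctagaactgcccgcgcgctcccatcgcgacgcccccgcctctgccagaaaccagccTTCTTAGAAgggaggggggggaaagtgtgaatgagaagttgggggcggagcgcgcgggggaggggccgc
Bst2: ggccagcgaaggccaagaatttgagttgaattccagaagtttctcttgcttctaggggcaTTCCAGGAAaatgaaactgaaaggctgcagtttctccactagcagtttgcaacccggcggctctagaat
Lrrc2: atcagggattTTCCTGGAAgaaagctttg
Prss56: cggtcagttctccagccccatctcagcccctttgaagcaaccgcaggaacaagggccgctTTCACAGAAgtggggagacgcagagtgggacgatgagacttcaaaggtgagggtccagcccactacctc
Socs3, Bst2 and Lrrc2 rose and Prss56 fell, so a match of this kind was present on both sides. Bst2 and Lrrc2 hold the narrower form, as do Icam1, Gfap and Gbp7 among the named genes that passed. TAATCC, the core bound by the photoreceptor factor CRX, stood in 7.57% of windows of risen genes, 10.1% of fallen genes and 5.84% of all. A match is a description of the letters and no evidence of binding.

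Of 27 tested genes of reactive gliosis and the acute phase 12 rose, 0 fell and 15 did not pass, with a median log2 difference of 0.92 against 0.04 over all genes. Serpina3n, a protease inhibitor of reactive glia, gave 5.07, 5.93 and 7.05 in the controls and 9.18, 9.01 and 8.34 under 7378K light, a 7.08-fold rise (adjusted p = 0.0029). A2m, which encodes the protease trap alpha-2-macroglobulin, rose from 8.58, 7.55 and 9.31 to 10.95, 10.66 and 11.01 (5.25-fold). In both genes the control pools were more spread than the exposed pools, and control 3 was the highest of the controls. Gfap, the intermediate filament gene that marks stressed Muller glia, rose from 6.15, 7.25 and 6.91 to 8.27, 8.48 and 8.08 (adjusted p = 0.011). Cd44, a receptor for hyaluronan, rose 2.20-fold (adjusted p = 0.00018) and Tgm2, a protein cross-linking enzyme, 3.96-fold (adjusted p = 0.0021). Clu, the chaperone clusterin, rose by 0.92 to 14.53 ± 0.11, near the highest signal of the arrays. Vim, a filament gene that Muller glia express throughout life, differed by 0.82 with overlapping groups (adjusted p = 0.11), and Lcn2, an iron-binding acute phase gene, by 1.63 (adjusted p = 0.050). With the covariate 4 of the 12 passed, Cd44, Mt2, A2m and Tgm2, and Gfap (adjusted p = 0.13), Serpina3n (adjusted p = 0.054) and Cp (adjusted p = 0.33) did not. With dap 2 passed, Cd44 and Mt2, while A2m (adjusted p = 0.12) and Tgm2 (adjusted p = 0.15) did not. On the mean of probe sets 4 of the list rose, and Cd44 (adjusted p = 0.19), Tgm2 (adjusted p = 0.063) and Cp (adjusted p = 0.056) lost their calls. The list's count of rises ran from 6 to 16 when single arrays were left out. Gfap lost its call in 2 of the 9 such fits (up to 0.062, without 7378K 2) and Cp in 5 (up to 0.185, without control 2).

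Of 19 tested markers of Muller glia 3 rose, 0 fell and 16 did not pass, with a median of 0.21. Crym, a thyroid hormone-binding crystallin, rose from 10.74, 10.65 and 10.29 to 12.17, 11.98 and 11.90 (adjusted p = 5.1e-05), Sox2 by 0.65 and the water channel gene Aqp4 by 0.58. Glul differed by 0.00 and Rlbp1, a retinoid carrier, by -0.15, and neither passed. Wwtr1, which encodes the Hippo pathway coactivator TAZ, rose 2.11-fold (adjusted p = 0.00049) in all 3 of its probe sets above the filter, and Ccn1, a target of that pathway, by 0.99 (adjusted p = 0.037). With the covariate Aqp4 (adjusted p = 0.12) and Ccn1 (adjusted p = 0.21) did not pass, nor did Aqp4 on the mean of its probe sets (adjusted p = 0.59), and Crym, Sox2 and Wwtr1 also passed with dap. When single arrays were left out, calls were lost in 2 fits for Sox2 (up to 0.0592), 3 for Aqp4 (up to 0.0901) and 6 for Ccn1 (up to 0.176), in each case highest without 7378K 1.

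Of 29 markers of microglia and macrophages listed 21 were tested. Of these 10 rose, 0 fell and 11 did not pass, with a median of 1.04. Ctss, a lysosomal protease of these cells, gave 10.03, 9.74 and 10.14 in the controls and 11.94, 11.73 and 11.89 under 7378K light, a difference of 1.89 ± 0.14 (adjusted p = 1.3e-05). Ly86, a cell surface partner of a Toll-like receptor relative, rose from 7.16, 7.25 and 7.31 to 9.80, 9.69 and 9.20. Mpeg1, a pore-forming protein of macrophages, gave 5.30, 6.48 and 4.65 against 7.91, 7.83 and 8.16, a 7378K mean 4.17-fold above the filter value. Groups were separate in each of these genes. Tyrobp, a signalling adaptor, rose 3.15-fold and Csf1r, the receptor that keeps microglia alive, 2.36-fold. Aif1 rose to a mean 1.91-fold above the filter value. Among genes used to mark resting microglia, P2ry12 differed by -0.44 (adjusted p = 0.63) and Cx3cr1 by 0.60 (adjusted p = 0.20), and neither passed. With the covariate 5 of the 10 passed, among them Ctss, Ly86, Tyrobp and Mpeg1, and Csf1r (adjusted p = 0.061) and Aif1 (adjusted p = 0.35) did not. With dap 3 passed, Ctss, Ly86 and Tyrobp, and Mpeg1 did not (adjusted p = 0.060). Between 6 and 10 rose when single arrays were left out, and Aif1 lost its call in 6 of those fits (up to 0.164, without 7378K 1). Of 13 genes of the disease-associated microglial state, 2 rose, the beta-glucan receptor Clec7a by 1.77 and the tetraspanin Cd9 by 0.53, and the median was 0.14. Clec7a lost its call without 7378K 1 (adjusted p = 0.0561) and did not pass with the covariate, and Cd9 did not pass with dap (adjusted p = 0.10) and lost its call in 5 of the fits with 1 array left out (up to 0.114, without control 2).

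Complement genes had the highest list median, 1.71, with 5 of 8 tested genes risen and 0 fallen, from 19 listed. C1qa, a subunit of the recognition protein C1q, gave 7.71, 7.07 and 7.96 in the controls and 10.02, 9.92 and 9.95 under 7378K light (5.21-fold, adjusted p = 0.00015). C1qb gave 7.39, 6.56 and 7.09 against 9.08, 9.49 and 9.55 (5.13-fold), and its 3 probe sets above the filter were all higher. C1qc gave 5.48, 2.75 and 6.82 against 8.50, 8.53 and 8.49, a difference of 3.49 that became 2.36 without control 2. Cfi, a protease that inactivates complement, rose 2.91-fold, and Serping1, the C1 inhibitor, rose 3.67-fold from 7.34, 7.11 and 9.22 to 9.95, 9.77 and 9.58. Genes of recognition and of inhibition were thus both among those that rose, while the regulator Cd59a differed by 0.22 without passing. With the covariate C1qa, C1qb and Cfi passed, and C1qc (adjusted p = 0.21) and Serping1 (adjusted p = 0.24) did not. With dap C1qa and C1qb passed and Cfi did not (adjusted p = 0.15). Serping1, with 1 probe set and an unchanged difference, lost its call in the fit on probe set means (adjusted p = 0.066). C1qc lost its call in 4 of the 9 fits with 1 array left out (up to 0.0933, without 7378K 1) and Serping1 in 5 (up to 0.169, without control 2).

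Of 13 antigen presentation genes 4 rose and 0 fell. Of the 13, 12 had a positive difference, with a median of 0.50 against 0.04 over all genes. B2m, the light chain of class I molecules, rose from 9.68, 9.71 and 10.54 to 11.42, 11.61 and 11.61 (2.96-fold, adjusted p = 0.0013). The class I heavy chain genes H2-D1 and H2-K1 rose 1.88-fold and 1.73-fold, in 5 of 7 and 4 of 4 probe sets above the filter, though these genes share sequence and their probe sets can take up each other's transcripts. Of 22 interferon response genes 5 rose and 0 fell, with a median of 0.67. Gbp2, a guanylate-binding protein, gave 6.39, 5.59 and 6.97 against 8.61, 8.33 and 8.48 (4.45-fold, adjusted p = 0.002). Bst2, which tethers budding viruses, gave 5.58, 3.78 and 6.36 against 7.93, 8.33 and 8.21, a difference of 2.92 that became 2.19 without control 2. Irf9, a subunit of the interferon-activated transcription factor, rose by 0.90. Ifit1 of the same list differed by 2.40 with overlapping groups and did not pass (adjusted p = 0.096). With the covariate B2m, both heavy chain genes, Gbp2 and Irf9 passed, and Bst2 (adjusted p = 0.085) did not. With dap Irf9 passed, and neither the other interferon genes nor any antigen presentation gene did. The adjusted p with dap was 0.077 for B2m, 0.060 and 0.097 for H2-D1 and H2-K1, and 0.087 for Gbp2. On the mean of probe sets the heavy chain genes did not pass either (adjusted p = 0.47 and 0.40). Between 1 and 6 interferon genes passed when single arrays were left out. Bst2 lost its call without 7378K 2 (adjusted p = 0.0524) and Irf9 in 6 of the fits (up to 0.116, without 7378K 3).

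Of 13 chemokines and adhesion molecules 3 rose, 0 fell and all 13 had a positive difference, with a median of 0.40. These were Ccl12, a chemokine for monocytes, at least 2.69-fold higher, and the leukocyte adhesion genes Icam1, higher by 1.51, and Vcam1, 2.13-fold higher. Ccl12 gave 4.62, 4.62 and 5.27 in the controls and 7.70, 7.53 and 6.77 under 7378K light, and Icam1 gave 5.83, 5.02 and 6.06 against 7.12, 7.33 and 7.00. The groups did not overlap in either gene. Vcam1 had 2 probe sets above the filter with opposite directions, and its mean over probe sets was -0.27. With the covariate Ccl12 passed, which it did not with dap (adjusted p = 0.082), and Icam1 and Vcam1 did not. Icam1, with 1 probe set and an unchanged difference, did not pass in the fit on probe set means (adjusted p = 0.050). It lost its call in 6 of the fits with 1 array left out (up to 0.143, without control 2) and Vcam1 in 3 (up to 0.0663, without 7378K 1).

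A few stress genes passed, beside 2.36% risen and 1.16% fallen over all genes tested. Mt1 and Mt2, zinc-binding metallothioneins, rose from 11.38, 11.46 and 11.78 to 12.82, 12.90 and 12.94 and from 10.71, 10.61 and 10.54 to 12.32, 12.39 and 12.19, respectively, with no overlap (adjusted p = 0.0028 and 0.0003). They are close relatives in sequence. Among 22 antioxidant and iron-handling genes 1 rose, the ferroxidase ceruloplasmin (Cp) with controls of 9.93, 10.30 and 11.50 against 11.96, 11.92 and 11.89, and 1 fell, the transferrin receptor Tfrc, by 0.56 on the log2 scale (adjusted p = 0.012). Hmox1, haem oxygenase 1, gave 5.35, 4.27 and 5.20 against 6.12, 6.47 and 6.58 and did not pass (adjusted p = 0.078). Of 28 genes of the unfolded protein response 2 rose, Atf3 and Xbp1, and Ddit3, its death-linked factor, differed by 0.37 without passing. Of 17 cell death genes Gadd45b rose from 7.73, 8.01 and 8.13 to 9.80, 10.02 and 9.54 (adjusted p = 0.00061), while its relative Gadd45a fell from 10.89, 10.76 and 10.80 to 10.04, 10.27 and 10.22 (adjusted p = 0.0076). The pro-death BH3 gene Bik, outside that list, was at least 2.64-fold higher (adjusted p = 0.0019). With the covariate Mt2, Tfrc, Gadd45b and Bik passed, and Mt1 (adjusted p = 0.052), Xbp1 (adjusted p = 0.24) and Gadd45a (adjusted p = 0.10) did not. With dap Gadd45b (adjusted p = 0.060) and Bik (adjusted p = 0.077) did not pass either. Mt1 (adjusted p = 0.061) and Xbp1 (adjusted p = 0.30) lost their calls on the mean of probe sets. Calls were lost when single arrays were left out in 3 fits for Tfrc (up to 0.0746) and 1 for Gadd45a (0.0585), both without 7378K 1, and in 5 fits for Xbp1 (up to 0.105, without 7378K 3).

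Other genes among the 15 largest rises were of varied function. Pcolce, an enhancer of procollagen processing, gave 7.95, 7.80 and 9.77 in the controls and 11.74, 11.91 and 11.80 under 7378K light (9.93-fold, adjusted p = 0.00065). Lyz1, a lysozyme close in sequence to Lyz2, rose 7.47-fold, with both genes' probe sets able to share transcripts. Tnnt2, named for cardiac troponin T, gave 6.06, 6.69 and 6.0 against 9.19, 9.11 and 9.08 (adjusted p = 2.2e-05). Of 7 skeletal muscle genes 0 passed in limma and 2 had an unadjusted p under 0.05, beside 2882 of 12762 over all genes tested. Lrrc2, a leucine-rich repeat gene, rose from 9.89, 9.70 and 9.59 to 12.67, 12.59 and 12.09 (adjusted p = 7.8e-07). All 4 passed with the 3' minus 5' covariate and with any single array left out, but Pcolce did not pass with dap (adjusted p = 0.077), nor Lyz1 on the mean of its probe sets (adjusted p = 0.059).

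**Figure D4:**
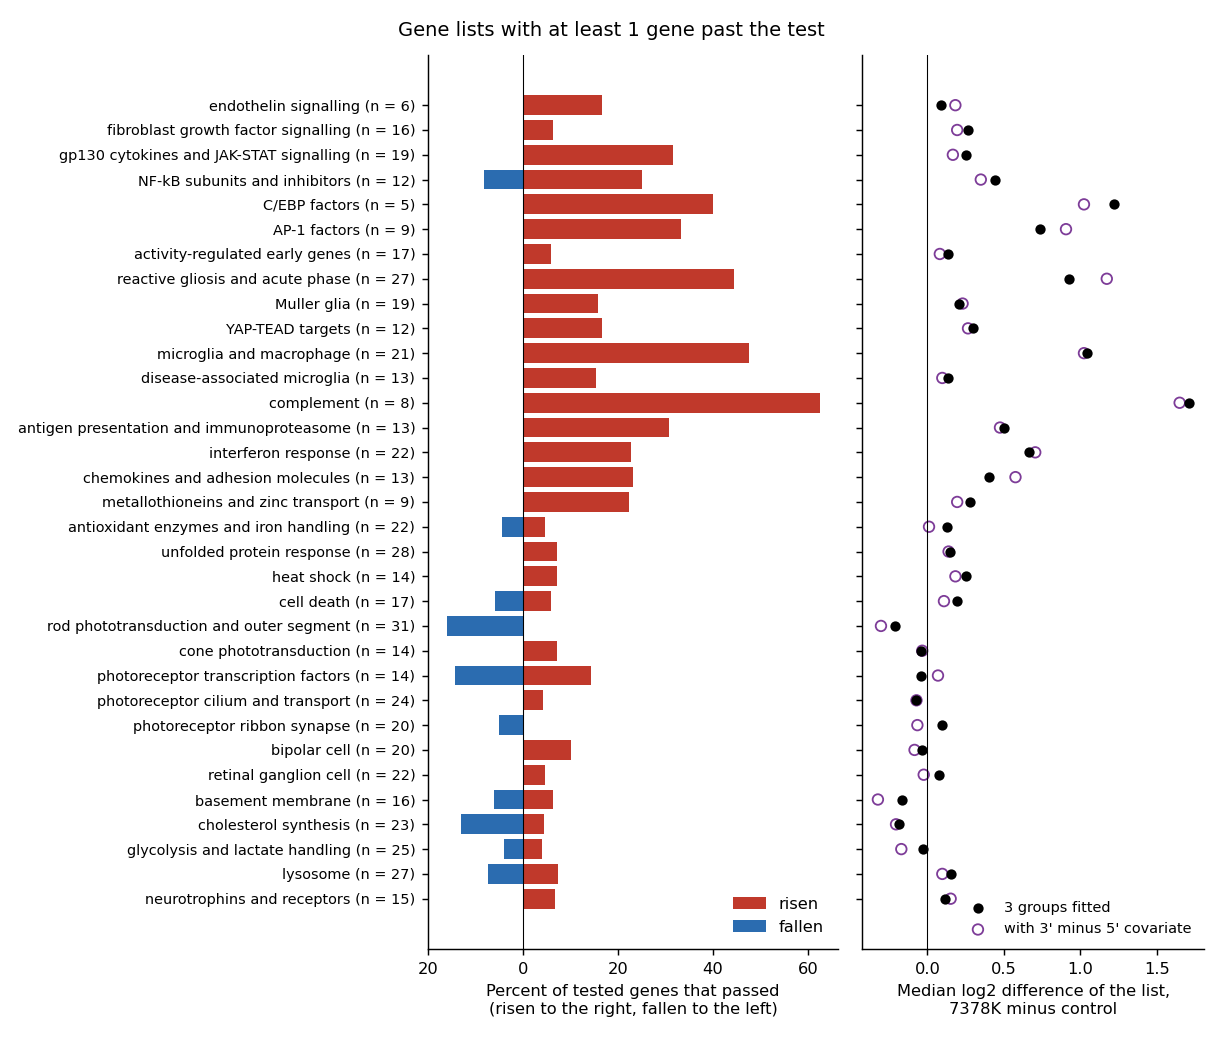
The 33 gene lists with at least 1 gene past the test. Left, the percent of each list's tested genes that rose (red, to the right) or fell (blue, to the left), beside 2.36% and 1.16% over all genes; right, the list's median log2 difference without (black) and with (open) the 3' minus 5' covariate. The highest medians are 1.71 for complement, 1.22 for the 5 C/EBP factors, 1.04 for microglia and 0.92 for gliosis, and rod phototransduction has 5 of 31 genes fallen and a median of -0.21.

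With the brightest probe set of each gene, falls were fewer and smaller than rises. On the mean of probe sets 128 genes rose and 127 fell. Prss56, a serine protease linked to eye size and made in the retina by Muller glia, gave 8.37, 8.37 and 8.63 in the controls and 4.53, 5.64 and 6.0 under 7378K light. It was at least 5.85-fold lower against the filter value (adjusted p = 0.0024). Glb1l3, a gene related to beta-galactosidase, fell from 10.87, 10.77 and 11.01 to 8.79, 8.22 and 8.49 (5.22-fold lower, adjusted p = 0.00022). Fam3c, which encodes a secreted protein, gave 13.04, 13.12 and 13.02 against 11.93, 12.00 and 11.89. The SD within a group was 0.06 in the controls and 0.05 under 7378K light, and the difference of -1.12 ± 0.09 (SE) had an adjusted p of 2.6e-05. Col4a3, a collagen of basement membranes, fell from 9.97, 9.59 and 10.47 to 8.44, 8.72 and 8.30 (2.87-fold lower), and Sgtb, a chaperone cofactor, was 2.54-fold lower. Dleu7, a gene with no settled function, was 3.50-fold lower (adjusted p = 0.0027). Nnat, neuronatin, gave 8.64, 8.93 and 9.26 against 8.23, 7.45 and 6.60 (adjusted p = 0.034), so its exposed pools were widely spread. Among genes of transport and signalling, Slc25a25, a mitochondrial carrier, was 3.09-fold lower, Slc29a1, a nucleoside transporter, 2.76-fold lower, and Grm8, an inhibitory glutamate receptor, 2.23-fold lower. With the covariate Glb1l3, Fam3c, Dleu7, Col4a3 and Sgtb passed, and Prss56 (adjusted p = 0.069) and Nnat (adjusted p = 0.32), Slc25a25, Slc29a1 and Grm8 did not. With dap Glb1l3 and Fam3c passed, and Dleu7 (adjusted p = 0.15), Col4a3 (adjusted p = 0.097) and Sgtb (adjusted p = 0.087) did not. Nnat (adjusted p = 0.056) and Grm8 (adjusted p = 0.054), each with 1 probe set and an unchanged difference, lost their calls in the fit on probe set means. When single arrays were left out, Nnat lost its call in 5 fits (up to 0.128, without control 2), Slc25a25 in 6 (up to 0.11), Slc29a1 in 4 (up to 0.126) and Grm8 in 6 (up to 0.16), the last 3 highest without 7378K 1. Of 81 fallen genes with more than 1 probe set above the filter, 53 were lower in all of them, and of 172 such risen genes 107 were higher in all. Over all genes tested, 2419 of 5866 such genes had the same direction in all.

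Genes of the rod channel and outer segment discs were among the falls. Of 31 tested genes of rod phototransduction and the outer segment 5 fell, 0 rose and 26 did not pass. Their median was -0.21, against 0.04 over all genes, with 7 positive differences. Cngb1 and Cnga1 encode the subunits of the rod channel that closes in light. Cngb1 gave 12.23, 12.54 and 12.18 in the controls and 11.61, 11.68 and 11.54 under 7378K light (adjusted p = 0.0068), and Cnga1 gave 13.54, 13.58 and 13.54 against 12.98, 13.13 and 13.08 (adjusted p = 0.009). Both subunits were lower with no overlap. Prph2 and Rom1, partners in shaping the outer segment discs, fell from 13.60, 13.84 and 13.90 to 12.87, 13.15 and 12.94 (adjusted p = 0.027) and from 14.11, 14.22 and 14.23 to 13.77, 13.89 and 13.68 (adjusted p = 0.032). Gnb5, part of the complex that ends the transducin signal, fell by 0.55 on the log2 scale, but 1 of its 2 probe sets above the filter was higher and their mean differed by 0.04. Gnat1 and Sag (rod arrestin) differed by 0.03 and 0.02, with signals near the highest of each array (14.96 to 15.42), where a change can go unseen. None of the 5 passed with either covariate, although the list's median was then -0.30. The count of fallen rod genes ran from 1 to 9 when single arrays were left out: Cnga1 lost its call in 2 of those fits (up to 0.0761, without 7378K 1), Gnb5 in 3 (up to 0.0891, without control 2), Prph2 in 6 (up to 0.131, without 7378K 1) and Rom1 in 6 (up to 0.161, without control 2).

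**Figure D5:**
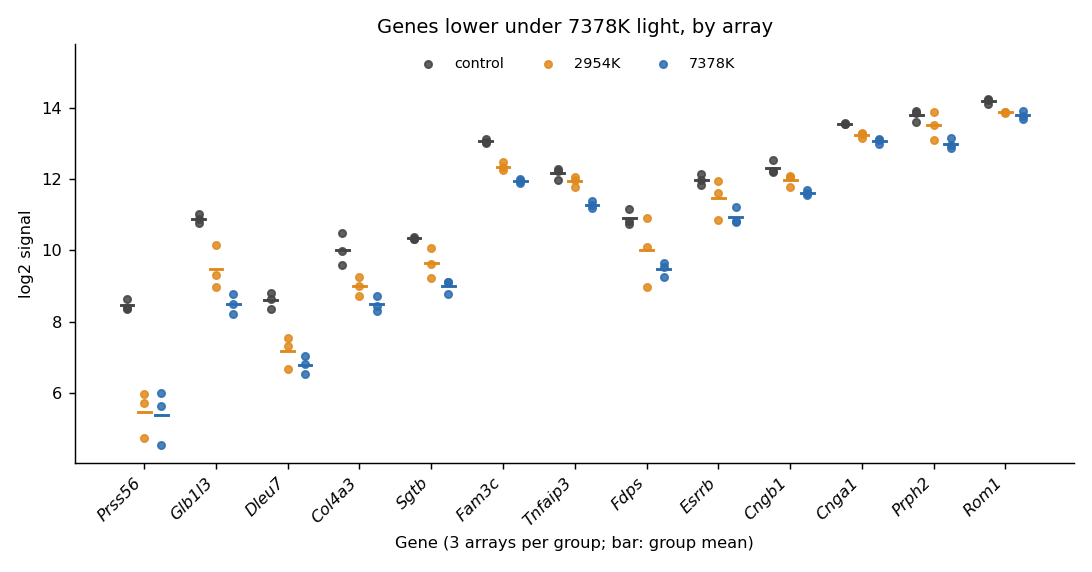
Log2 signal (vertical) of 13 fallen genes (horizontal) on each array, with control (grey), 2954K (orange) and 7378K (blue) pools and group means as bars. All 7378K points lie below all control points; Fam3c and Cnga1 have little spread within groups, and the 2954K pools of Glb1l3 and Fdps are widely spread.

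Of 14 cone genes 1 rose, 0 fell and 13 did not pass. The riser, Gnb3, a transducin beta subunit of cones and ON bipolar cells, gave 12.67, 12.85 and 12.62 in the controls and 13.72, 13.77 and 13.72 under 7378K light (2.03-fold, adjusted p = 0.00012). The opsins Opn1sw and Opn1mw differed by -0.17 and -0.51 and the cone arrestin Arr3 by -0.69, and none passed. Among 14 photoreceptor transcription factors 2 rose and 2 fell. Esrrb, which supports rod survival, fell from 11.97, 11.83 and 12.13 to 10.83, 11.20 and 10.80 (adjusted p = 0.029) in all 3 of its probe sets above the filter. Mef2c fell by 0.43 on the log2 scale, while Casz1 rose by 0.81, in 1 of its 2 probe sets above the filter, and Rax by 0.44. Cacnb2, a beta subunit of the calcium channel of photoreceptor terminals, fell from 11.23, 11.50 and 11.22 to 10.05, 10.42 and 10.34 (adjusted p = 0.028). It was 1 of 20 ribbon synapse genes, and the other 19 did not pass. Of these genes Gnb3 (adjusted p = 0.00019) and, at an adjusted p of 0.050, Esrrb passed with the covariate, and Cacnb2, Mef2c, Casz1 and Rax did not. With dap Gnb3 passed, and the others, Esrrb at an adjusted p of 0.16 among them, did not. On the mean of probe sets Cacnb2 (adjusted p = 0.064), Esrrb (0.096), Mef2c (0.083) and Casz1 (0.57) did not pass. Rax, with 1 probe set and an unchanged difference, did not pass in that fit either (0.052). When single arrays were left out, Gnb3 kept its call throughout, Cacnb2 and Casz1 lost it in 5 fits, Esrrb in 6 and Mef2c and Rax in 7, with adjusted p up to 0.201.

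Few metabolic genes passed, in both directions, beside 2.36% risen and 1.16% fallen over all genes tested. Of 23 tested genes of cholesterol synthesis 3 fell, 1 rose and 19 did not pass. Their median was -0.19, against 0.04 over all genes, with 4 positive differences. Fdps, which makes farnesyl diphosphate, gave 10.75, 11.16 and 10.82 in the controls and 9.25, 9.65 and 9.54 under 7378K light (adjusted p = 0.047). Mvd, an earlier step of that path, was 2.17-fold lower (adjusted p = 0.036) and Srebf1, a master regulator of lipid synthesis, 1.46-fold lower (adjusted p = 0.036). Pmvk, the kinase of the step before Mvd, went the other way, from 9.79, 9.70 and 9.92 to 10.87, 11.01 and 10.69 (adjusted p = 0.00046). Me1, malic enzyme, which supplies reducing power for lipid synthesis, was 2.49-fold lower (adjusted p = 0.029). Pmvk and Srebf1 passed with each covariate and Fdps, Mvd and Me1 did not (adjusted p = 0.35, 0.38 and 0.14). On the mean of probe sets Fdps, Mvd and Me1 did not pass (adjusted p = 0.72, 0.13 and 0.084). Srebf1, with 1 probe set and an unchanged difference, did not pass in that fit either (adjusted p = 0.050). When single arrays were left out, 0 to 4 of the list's genes fell, and the calls were lost in 7 fits for Fdps, 6 for Mvd and Srebf1 and 5 for Me1, with adjusted p up to 0.183. Among 25 genes of glycolysis and lactate handling Hk2, a hexokinase that photoreceptors use, fell by 0.42 on the log2 scale (adjusted p = 0.036), and Hk1, its widely expressed relative, rose by 0.68 in 1 of 2 probe sets above the filter, with -0.58 for their mean. Hk1 and Hk2 did not pass with the covariate (both adjusted p = 0.11) and lost their calls in 3 and 6 fits with 1 array left out. Of 44 respiratory chain subunits 0 passed in limma, with a median of 0.04 and differences between -0.36 and 0.43. Of them 6 had an unadjusted p under 0.05, beside 2882 of 12762 over all genes tested.

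Few lysosomal genes passed, in both directions, beside 2.36% risen and 1.16% fallen over all genes tested. Of 27 tested 2 rose, Ctss and Ctsc, and 2 fell, the proteases Ctsf, from 10.69, 10.89 and 11.02 to 10.23, 10.30 and 10.23 (adjusted p = 0.033), and Lgmn, by 0.50 on the log2 scale (adjusted p = 0.039). Of these Ctss passed with each covariate. Ctsc (adjusted p = 0.98) and Ctsf (0.88) did not pass on the mean of probe sets. Lgmn, with 1 probe set and an unchanged difference, did not pass in that fit either (0.052). Ctsc, Ctsf and Lgmn lost their calls in 4, 6 and 7 fits with 1 array left out (up to 0.0748, 0.135 and 0.182). Of 14 heat shock genes 1 rose, Hspa4, in 1 of its 3 probe sets above the filter (1.66-fold, adjusted p = 0.0078), and it lost its call with the covariate (adjusted p = 0.12), on the mean of its probe sets (adjusted p = 0.45) and without 7378K 3 (adjusted p = 0.0544). Of 16 basement membrane genes Col4a3 fell and Agrn, which encodes the proteoglycan agrin, rose by 0.75 (adjusted p = 0.013). Agrn lost its call with the covariate (adjusted p = 0.18), on the mean of its probe sets (adjusted p = 0.54) and in 3 fits with 1 array left out (up to 0.0687, without 7378K 2). Of 15 neurotrophic factors and receptors 1 rose, Lif, and the brain-derived factor gene Bdnf differed by -0.15 without passing.

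Lists of the other retinal cell types had 0 to 2 genes past the test. Of 20 bipolar cell genes 2 rose, Gnb3 and Isl1, of 22 ganglion cell genes 1, Isl1, and of 22 amacrine, 9 horizontal, 20 endothelial, 10 pericyte and 21 clock genes 0. Their medians lay between -0.03 and 0.21. Of the lists with no call, 1 of 22 amacrine, 4 of 9 horizontal and 3 of 20 endothelial genes had an unadjusted p under 0.05 in limma. So did 3 of 10 pericyte and 5 of 21 clock genes, beside 2882 of 12762 over all genes tested. Isl1 rose by 0.47, in 1 of 2 probe sets above the filter, with -0.11 for the mean of its probe sets, and it lost its call in 6 fits with 1 array left out (up to 0.0921, without 7378K 1). Nearest to the threshold among the lists without a call was Slc32a1, the vesicular transporter of inhibitory transmitters, at 11.04, 10.69 and 10.81 against 11.53, 11.42 and 11.44 (adjusted p = 0.054). Among 20 genes of the visual cycle and pigment epithelium none passed in limma (3 at an unadjusted p under 0.05), and Rdh11, a retinol dehydrogenase, was nearest, at 9.68, 9.94 and 9.51 against 9.02, 8.98 and 8.97 (adjusted p = 0.088).

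The 7378K and 2954K groups share the same controls, so their differences from control are not independent. Beside the values above, the 2954K means were 12.74 for Edn2, 8.73 for Bcl3, 10.41 for Socs3, 11.36 for Stat3 and 9.90 for C1qa, and 12.35 for Fam3c, 11.93 for Tnfaip3, 11.97 for Cngb1 and 13.50 for Prph2. Tnfaip3 and Prph2 were thus closer to control under 2954K light (control means 12.16 and 13.78) than under 7378K light (11.28 and 12.99). The direct test of 7378K against 2954K did not call these differences or any other. In limma 0 of 12762 genes passed, the smallest adjusted p was 0.978, and 520 genes had an unadjusted p under 0.05, of which 93 were among the 449 genes called against control. The count became 29 without 2954K 1, the array with the highest 3' minus 5' difference (2.78), and stayed 0 when any other single array was left out. A p that misses the threshold does not show that the light sources acted alike.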

How the data were processed

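Probe set signals of 9 Affymetrix mouse expression arrays were used, 3 arrays per group and 1 pool of 3 retinas per array. The submitters' processing notes name MAS5 and affy, without versions or roles, and the authors deposited MAS5-type log2 signals: 2 raised to the value gave a 2% trimmed mean of 500 on each array. They were scaled array by array and used unchanged. Detection calls were not used, and precision is limited by the small number of arrays. Nothing in the sources used here gives hybridisation batches.

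Of 45101 probe sets, 64 were controls, 34958 had 1 gene symbol in the platform annotation, 932 had several and 9147 had none, and 34754 were matched to RefSeq (GRCm38.p6). Each of 18194 genes was represented by the brightest of its probe sets with 1 symbol, by the mean over 9 arrays. Leaving out genes whose mean was under 5.91 (the 40th percentile over probe sets) kept 12762. All 9 arrays entered 1 linear model, with a mean for each group, in limma (version 3.58.1; R version 4.3.3), and eBayes moderated the spread along an intensity trend. Adjusted p-values are from limma, by Benjamini-Hochberg over all 12762 genes, and a gene passed at an adjusted p under 0.05. Where the dimmer group's mean lay below 5.91, the fold is a bound against that value, except for C1qc, Bst2 and Icam1, given as differences because they came under the bound without control 2. Other software comprised pandas 2.3.3, matplotlib 3.10.9 and the R package for tables, data.table (1.17.8).

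The comparison, the 46 gene lists and the genes named were chosen with earlier results of these data known, so no list is independent evidence. Genes of a list were measured on the same arrays, so a count of positive differences is not a count of independent results. Genes named were the 15 largest rises and falls with no overlap, without predicted genes, up to 5 members of each list with the smallest p, the nearest member of a list with no call, and a panel. Further list members are given as values chosen after these were seen. The 3' minus 5' difference was tested by exact permutation. Alternatives were single arrays left out, covariates, a replicate block, other scalings, filters, variance models and summaries of probe sets.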

Additional observations from a re-analysis of the deposited data

How the results depend on the processing

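The 449 genes called kept their direction under each alternative that tested them (409 of them under the 60th percentile filter) except the mean over a gene's probe sets. There 394 of 439 kept it, and 7 of those that reversed are named genes: Ikbkb (-0.24), Tapbp (-0.28), Isl1 (-0.11), Vcam1 (-0.27), Hk1 (-0.58), Bbs4 (-0.00997) and Gnb5 (0.0425). Counts of rises and falls were 301 and 148. They became 1350 and 824 from the 6 arrays of the compared groups alone and 1675 and 1013 with array weights. They became 111 and 25 with the 3' minus 5' covariate, 66 and 11 with the dap spike-in difference in its place, and 161 and 46 without the intensity trend. The mean over probe sets gave 128 rises and 127 falls. That fit tested 11796 genes and estimated the spread anew. The adjusted p of a gene with 1 probe set could thus move while its difference stayed the same. Leaving out the third array of all 3 groups, where lens transcripts were highest, an alternative chosen after seeing the data, gave 124 and 22. With 1 array left out, rises ran from 112 to 909, falls from 30 to 608, and genes differing between 7378K and 2954K from 0 to 29. With the replicate block 394 rose and 243 fell; same-numbered arrays shared deviations with correlations of 0.07, 0.11 and 0.21, not all above 0.1, so the numbers were not taken to pair the pools. Quantile normalization (372 and 195), the filters, the signal floor and the robust prior stayed within 1.5 times. The causes of these shifts were not tested. Most of the calls were lost without the third arrays and with the 3' minus 5' covariate. Most were also lost when control 1, control 2 or any 1 of the 7378K arrays was left out. Without control 3 alone 295 rose and 96 fell. The 3' minus 5' difference and light cannot be told apart within the 6 arrays compared.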
